A study of Mus musculus with 4 samples.

Results

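The genes described are those that encode the proteins of the cytosolic ribosome. They were taken by name and type, as every protein-coding row whose symbol is Rpl or Rps followed by a number and an allowed ending, with the stalk genes Rplp0, Rplp1 and Rplp2 and the laminin receptor gene Rpsa. The rule found 79 genes among the 13881 rows of the deposited table, 48 of the large subunit and 31 of the small subunit. Of these, 3 are taken here as paralogues of a parent gene that is also in the set: Rpl22l1, Rpl7l1 and Rps27l. No measured value entered the choice.

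RNA was measured in neural progenitor cells of the embryonic forebrain, taken from C57bl/6 mice at embryonic day 14 and kept dividing in DMEM/F-12 with 2% B27 without vitamin A, 20 ng/ml EGF and 20 ng/ml FGF-2. The shRybp group was infected with a lentivirus that expresses a short hairpin RNA against Rybp, which encodes a protein of Polycomb repressive complex 1. The other group carries the label ctrl, with no word in the labels on which vector it received. There are 2 libraries per group, numbered 1 and 2. Since no label says that they come from separate cultures or embryos, a p-value here speaks of the spread among 4 libraries, part or all of which may be technical.

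The large subunit joins amino acids and holds the tunnel through which the new chain leaves, and the small subunit reads the messenger RNA. Every ribosome needs a copy of nearly every ribosomal protein, and cells make these proteins in step. Their messenger RNAs start with a run of pyrimidines, the 5′ terminal oligopyrimidine tract, through which the kinase mTOR and the RNA-binding protein Larp1 set how much is translated. Spare ribosomal proteins can also act outside the ribosome: Rpl5 and Rpl11, bound to 5S ribosomal RNA, block Mdm2 and so stabilise p53. Retrotransposition has left many near-identical copies of ribosomal protein genes in the mouse genome, most of them processed pseudogenes.

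Runs of pyrimidines were sought in the promoter windows of RefSeq (GRCm38.p6, 250 bases before to 50 bases after each gene's start), in which 59 of the 79 genes matched by symbol. The windows below show 30 bases around the longest run of C and T, which is in capitals, for 4 genes that changed and for Rps6, which did not pass the test.
Rpl27a, chr7:109519186-109519215, plus strand: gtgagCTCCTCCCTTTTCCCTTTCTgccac
Rpl22, chr4:152325679-152325708, plus strand: ccgtctgaCTCCTCCCTTTCCCgacagccg
Rpl27, chr11:101442193-101442222, plus strand: gtcatcctcgCTCCTCCCTCCacacgccgg
Rpsa, chr9:120127702-120127731, plus strand: gagcggaagTTCTCCCTTTTTgcttagcct
Rps6, chr4:86857349-86857378, minus strand: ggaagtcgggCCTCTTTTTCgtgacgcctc
The longest run spans 20 bases in Rpl27a, 14 in Rpl22, 11 in Rpl27, 12 in Rpsa and 10 in Rps6. Counted from the RefSeq start, it begins at -4 in Rpl27a and -1 in Rps6 and so spans the start, whereas it begins at -39 in Rpl22, -42 in Rpl27 and -55 in Rpsa and ends before the start, so those 3 runs are not the tract of the annotated transcript. Rpl27a and Rpl22 fell and Rpl27 and Rpsa rose (values below). The other genes that changed and had a window all rose. Their longest runs were 13 bases in Rps10, 10 in Rps2, 9 in Rps27l and 7 in Rpl7l1. The Rps2 run meets the end of the window, so it may be longer. The RefSeq starts used for Rps2 and Rps10 lie 1947 and 1425 bases from the gene's 5′ end in the deposited table. Within these windows, Rpl27a and Rpl22 had the longest runs among the genes that changed, although Rpl17 had no window and the Rps2 run is cut. A link of run length to direction was not tested. Between 100 bases before and 50 bases after the start, 43 of the 59 ribosomal protein windows held a run of at least 10 on the gene's strand (72.9%), against 23.4% of the 8438 tested rows with a window. Over the whole window and on both strands, CTTTCC was present in 47.5% of the ribosomal protein windows against 26.2% of all, and CCGGAAG, a core of the kind bound by ETS factors such as Gabpa, in 39.0% against 20.3%. AAGATGG, part of the site of Yy1, was present in 15.3% against 7.79%. Of 2 common promoter elements, TATAAA was present in 10.2% against 6.1% and CCAAT in 32.2% against 40.03%. A match describes these letters in this window and does not show binding or the start used in these cells.

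The libraries held 14355308 and 16400480 counts in the shRybp group and 17598873 and 15938646 counts in the ctrl group. Rybp, the gene targeted, stood at 3.01 and 2.66 FPKM (counts per gene length and library total) in shRybp, against 4.43 and 3.95 FPKM in ctrl, a log2 fold change of -0.61 ± 0.12 (SE, adjusted p = 0.0017). Of 8 progenitor markers tested, Nes and Vim rose and Sox2, Fabp7, Hes5 and Msi1 fell. All 6 astrocyte markers fell by edgeR and 5 by DESeq2. The summed level of the astrocyte markers was 136.2 and 147.6 FPKM in shRybp against 398.3 and 403.9 FPKM in ctrl. By edgeR 2 of 4 neuronal markers and 3 of 6 oligodendrocyte markers fell, and Acta2 rose. DESeq2 called 1 neuronal marker and 3 oligodendrocyte markers lower and did not call Acta2. No erythroid marker had a row, and the microglial markers together stayed below 1 FPKM in every library. Mitochondrially encoded genes took 4.09% and 3.92% of counts in shRybp against 5.22% and 4.73% in ctrl. The part of these shifts in the values that follow was not tested. In bulk samples, fewer cells of a type and less RNA per cell cannot be told apart.

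Few ribosomal protein genes changed when Rybp was knocked down. Of the 79 genes, all of which were tested, 7 rose and 2 fell at an adjusted p under 0.05 (edgeR, adjusted over all 12062 rows tested), which is 11.4%. Of all rows tested 33.0% were called, 16.3% as higher and 16.7% as lower in shRybp. The genes that rose were Rps10, Rpl17, Rpl7l1, Rps27l, Rps2, Rpsa and Rpl27, and those that fell were Rpl27a and Rpl22. A further 70 genes did not pass. An unadjusted p under 0.05 by edgeR was found for 17 of the 79, against 5227 of the 12062 rows tested.

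The share of calls was also the smaller among genes with many counts. Among genes with a mean of at least 1000 counts per library, 10.7% of the 75 ribosomal protein genes were called, against 43.6% of the 3984 other rows. The median standard error was 0.064 for the ribosomal protein genes and 0.068 for those other rows, on the log2 scale. The 95% interval of the fold change lay within 1.5-fold in either direction for 75 of the 79 genes (94.9%, against 72.2% of all rows). It lay within 1.2-fold for 52 of the 79, against 2376 of the 12062 rows tested. At a mean of at least 1000 counts, it lay within 1.5-fold for 97.3% of the ribosomal protein genes and 87.9% of the other rows. Within 1.2-fold the numbers were 52 of 75 and 1421 of 3984. The groups did not overlap in scaled counts for 37 of the 79 genes (46.8%, against 66.9% of all rows), 26 with shRybp above and 11 with shRybp below. Among all 12062 rows tested, shRybp lay wholly above ctrl in 4071 and wholly below in 4004.

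The median log2 fold change of the 79 genes was 0.01, beside 0.00 over all rows, with quartiles of -0.04 and 0.08. The median size of the change, taken without its sign, was 0.07 for the ribosomal protein genes and 0.19 for all rows. No ribosomal protein gene stood at or below -0.30 on the log2 scale and 97.5% stood at or below 0.30, against 16.2% and 85.8% of all rows. Which genes passed depended on the libraries: the count was 2 higher and 6 lower without shRybp 1, 5 and 1 without shRybp 2, 2 and 3 without ctrl 1, and 5 and 4 without ctrl 2.

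**Figure D1:**
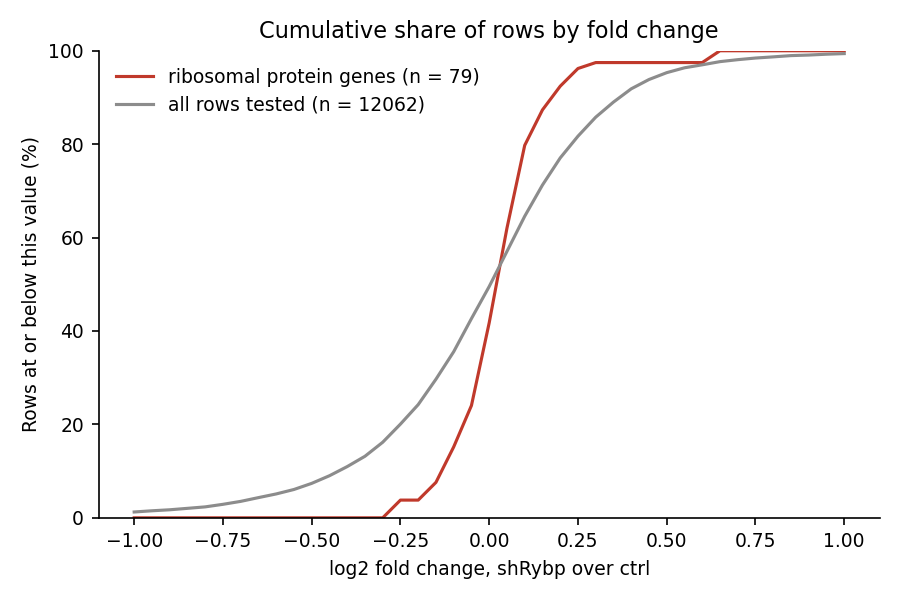
Cumulative share of rows (%) at or below each log2 fold change, shRybp over ctrl, for the 79 ribosomal protein genes and for all 12062 rows tested. The curve of the ribosomal protein genes is the steeper: it holds no row at or below -0.30 and 97.5% of its rows at or below 0.30.

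By subunit, the counts were these. In the large subunit 3 of 48 genes rose and 2 fell, with a median log2 fold change of 0.00. In the small subunit 4 of 31 rose and none fell by edgeR, with a median of 0.05. At an unadjusted p under 0.05, 7 of the 31 were higher and 1 was lower, and DESeq2 called 3 higher and 0 lower. By edgeR 10.4% of the large-subunit and 12.9% of the small-subunit genes were called, against 33.0% of all rows tested, 16.3% as higher. The 4 small-subunit genes that rose include the paralogue Rps27l and Rps10. The call of Rps10 was lost once its near-identical copies, described below, were added. The difference between the subunits was not tested. Across the 79 genes the log2 fold change had a Spearman correlation of -0.02 with mean FPKM and of 0.21 with coding length, which ran from 78 bases in Rpl41 to 1260 bases in Rpl4. These are descriptions over genes that share the same 4 libraries.

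**Figure D2:**
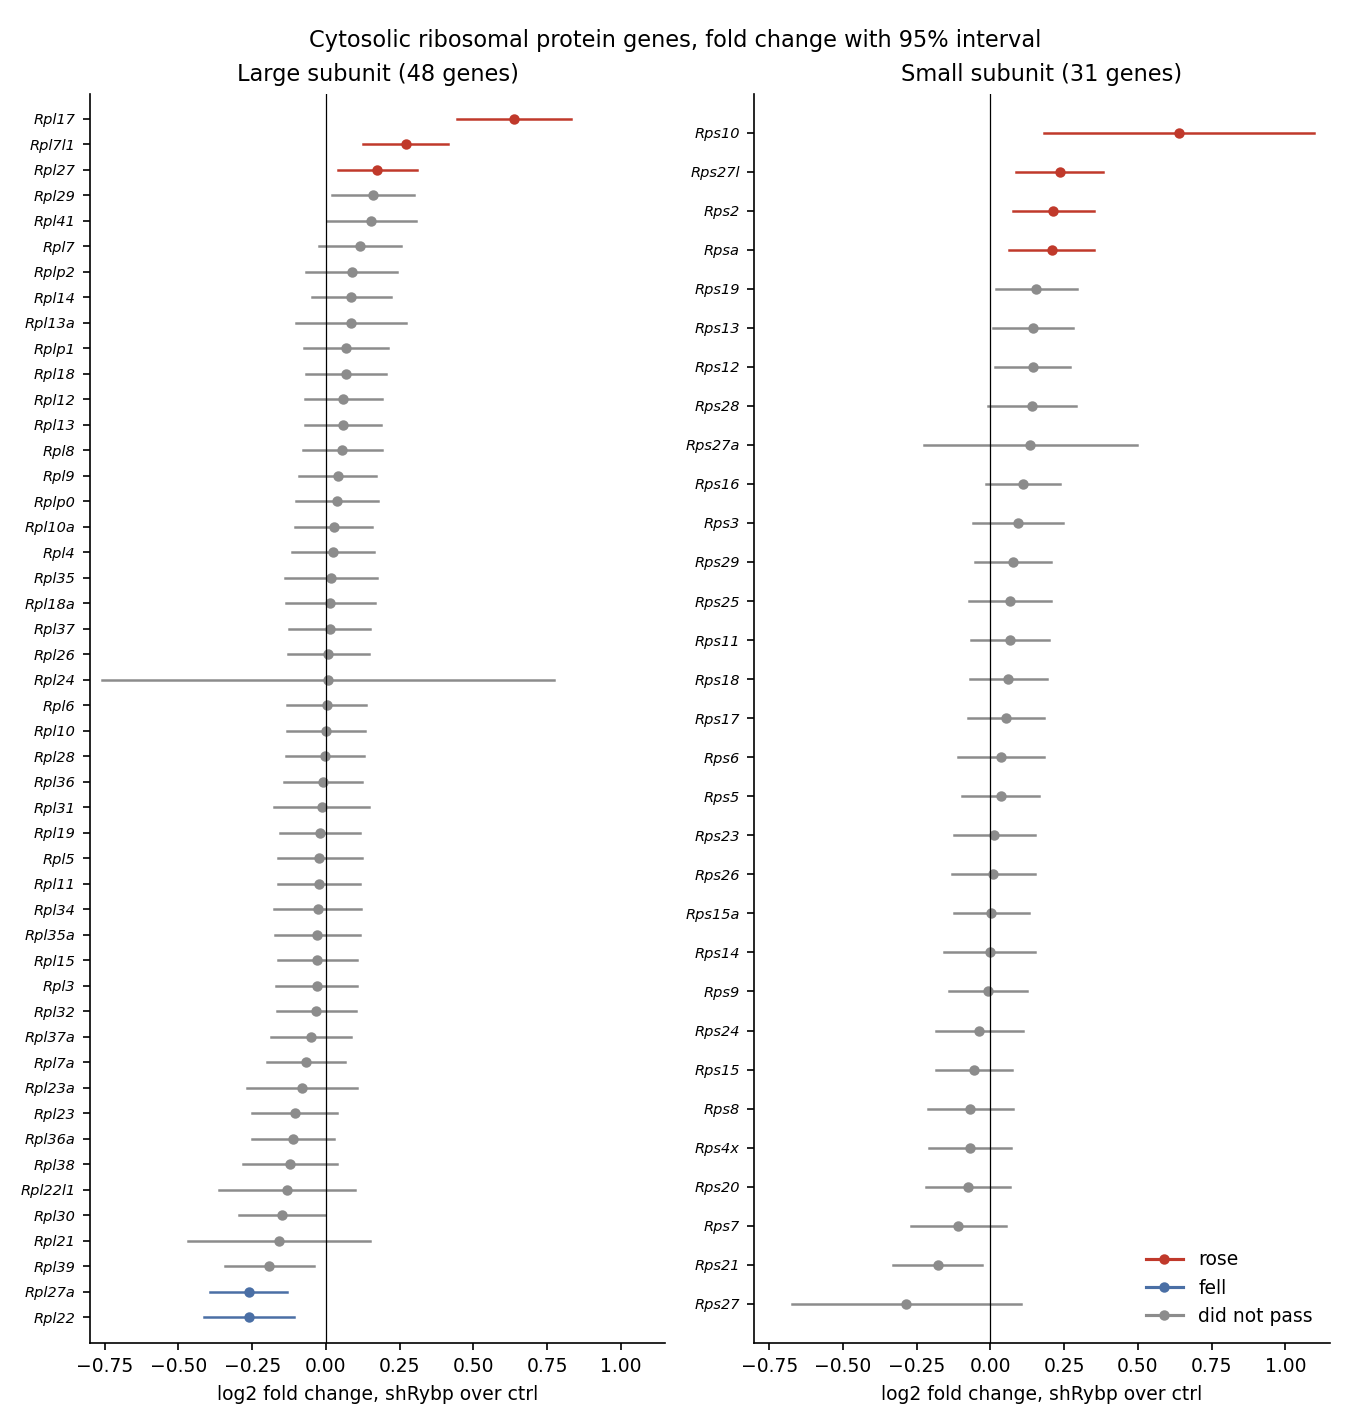
Log2 fold change of each ribosomal protein gene, shRybp over ctrl (dot), with its 95% interval (line), by subunit, coloured by whether it rose, fell or did not pass. Rpl17 and Rps10 stand apart at 0.64 each, and the interval of Rpl24 is the widest, from -0.76 to 0.77.

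Summed over the 79 genes, the share of counts was 3.48% and 3.33% in shRybp against 3.28% and 3.26% in ctrl. Both shRybp libraries lay above both ctrl libraries, by a mean difference of 0.136 percentage points with a within-group SD of 0.0784. Without shRybp 1 the difference was 0.0585, and without shRybp 2 it was 0.213. With 2 libraries against 2, the smallest two-sided exact permutation p is 0.333, so no such difference can pass that test. The share of summed FPKM was 7.20% and 6.89% in shRybp against 6.72% and 6.76% in ctrl. Adding the copies described below gave 3.79% and 3.62% of counts in shRybp against 3.59% and 3.55% in ctrl.

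None of the 3 stalk genes of the large subunit passed by edgeR or DESeq2, and 0 had an unadjusted p under 0.05 by either. Rplp1, a stalk protein that recruits translation factors, had 863.1 and 811.5 FPKM in shRybp against 746.1 and 811.8 FPKM in ctrl. Rplp0, the stalk base, had 713.9 and 726.5 FPKM in shRybp against 668.4 and 701.9 FPKM in ctrl. The groups overlapped for Rplp1, with a log2 fold change of 0.07 (adjusted p = 0.46). For Rplp0 both shRybp values were above both ctrl values in FPKM, while the groups overlapped in scaled counts. The log2 fold change of Rplp0 was 0.04 and did not pass (adjusted p = 0.70). Rplp2, the other stalk protein, gave 0.09 (adjusted p = 0.38). Rpl23a, at the exit of the peptide tunnel, was the third most abundant ribosomal protein gene per length, at 800.6 and 701.9 FPKM in shRybp against 834.5 and 714.8 FPKM in ctrl. The libraries numbered 1 were the higher ones in each group, and the groups overlapped (log2 fold change -0.08, adjusted p = 0.51).

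Rpl3, which reaches the peptidyl transferase centre, had 348.7 and 343.5 FPKM in shRybp against 345.1 and 345.5 FPKM in ctrl (log2 fold change -0.03, interval -0.17 to 0.10). Rpl10, which joins the subunit late in its assembly, had 241.1 and 236.0 FPKM in shRybp against 227.6 and 237.8 FPKM in ctrl (log2 fold change 0.00, interval -0.13 to 0.13). All 4 libraries lay close together for both genes. The X chromosome carries 4 of the genes, Rpl10, Rpl36a, Rpl39 and Rps4x, none of which passed by edgeR or DESeq2 (1 had an unadjusted p under 0.05 by either), with a median log2 fold change of -0.09. That 1 was Rpl39, a small protein of the exit tunnel, at 96.6 and 87.5 FPKM in shRybp against 105.5 and 99.4 FPKM in ctrl. Both shRybp libraries lay below both ctrl libraries, by -0.19 on the log2 scale with an adjusted p of 0.052. Rpl38, known from mouse mutants with a changed skeleton, gave a log2 fold change of -0.12 (adjusted p = 0.23).

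Of genes that link the ribosome to p53, Rpl5, Rpl11, Rpl23 and Rpl26 did not pass either. Rps27l, which is tied to p53 as a target gene in people, rose and is described with the paralogues. Rpl5 had 205.3 and 190.7 FPKM in shRybp against 198.2 and 194.0 FPKM in ctrl, and Rpl11 had 193.7 and 178.7 FPKM in shRybp against 183.1 and 186.1 FPKM in ctrl. In both genes the groups overlapped, with log2 fold changes of -0.02 each (adjusted p = 0.83 and 0.81). Rpl23, which can also bind Mdm2, gave -0.11 (adjusted p = 0.24), and Rpl26, which binds p53 messenger RNA, gave 0.01 (adjusted p = 0.94).

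In the small subunit, Rps6, the target of S6 kinase, had 483.6 and 437.5 FPKM in shRybp against 432.7 and 443.6 FPKM in ctrl. The groups overlapped (log2 fold change 0.04, adjusted p = 0.72). Rps15, the most abundant gene of the set per length, had 807.1 and 799.1 FPKM in shRybp against 817.1 and 811.9 FPKM in ctrl, lower in both shRybp libraries by a margin that did not pass (log2 fold change -0.06, adjusted p = 0.51). Rps4x gave -0.07 (adjusted p = 0.43). Of the genes known from inherited or acquired anaemias in people, Rps19 gave 0.16 (adjusted p = 0.078), Rps14 0.00 (adjusted p = 0.98) and Rps26 0.01 (adjusted p = 0.92). Rps25, which some viral and cellular messenger RNAs need to start translation internally, gave 0.07 (adjusted p = 0.46).

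The largest decrease with close replicates was that of Rpl27a, a large-subunit protein that Riox2 hydroxylates. Its level was 193.5 and 192.3 FPKM in shRybp against 226.6 and 224.7 FPKM in ctrl. The groups did not overlap, and the log2 fold change was -0.26 ± 0.06 (SE, adjusted p = 0.0052). The direction and the call held under every alternative run, 15 in all. Rpl22, an RNA-binding protein of the large subunit that mice can live without, had 88.5 and 80.9 FPKM in shRybp against 103.3 and 94.6 FPKM in ctrl. All shRybp values lay below all ctrl values, by -0.26 ± 0.07 on the log2 scale (adjusted p = 0.012). Its call was lost without shRybp 2 (-0.20, adjusted p = 0.10) and without ctrl 1 (-0.19, adjusted p = 0.093), and by limma on log2(FPKM + 1) (-0.22, adjusted p = 0.059).

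Rps2, which lies at the entry of the messenger RNA channel, had 515.6 and 493.0 FPKM in shRybp against 417.7 and 431.7 FPKM in ctrl. Rpsa, whose protein also serves as a laminin receptor, had 518.7 and 504.5 FPKM in shRybp against 421.0 and 444.1 FPKM in ctrl. Both genes rose and their groups did not overlap, with log2 fold changes of 0.21 ± 0.06 (adjusted p = 0.021) and 0.21 ± 0.07 (adjusted p = 0.030). Rpl27, named after its values were seen, had 190.8 and 180.5 FPKM in shRybp against 156.5 and 164.8 FPKM in ctrl, a log2 fold change of 0.17 ± 0.06 (adjusted p = 0.046). It lost its call under 6 of 15 alternatives, among them each left-out library. Rps2 lost its call without shRybp 1 (adjusted p = 0.12), ctrl 1 (0.093) or ctrl 2 (0.052), and Rpsa without shRybp 1 (0.13), shRybp 2 (0.062) or ctrl 1 (0.15).

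**Figure D3:**
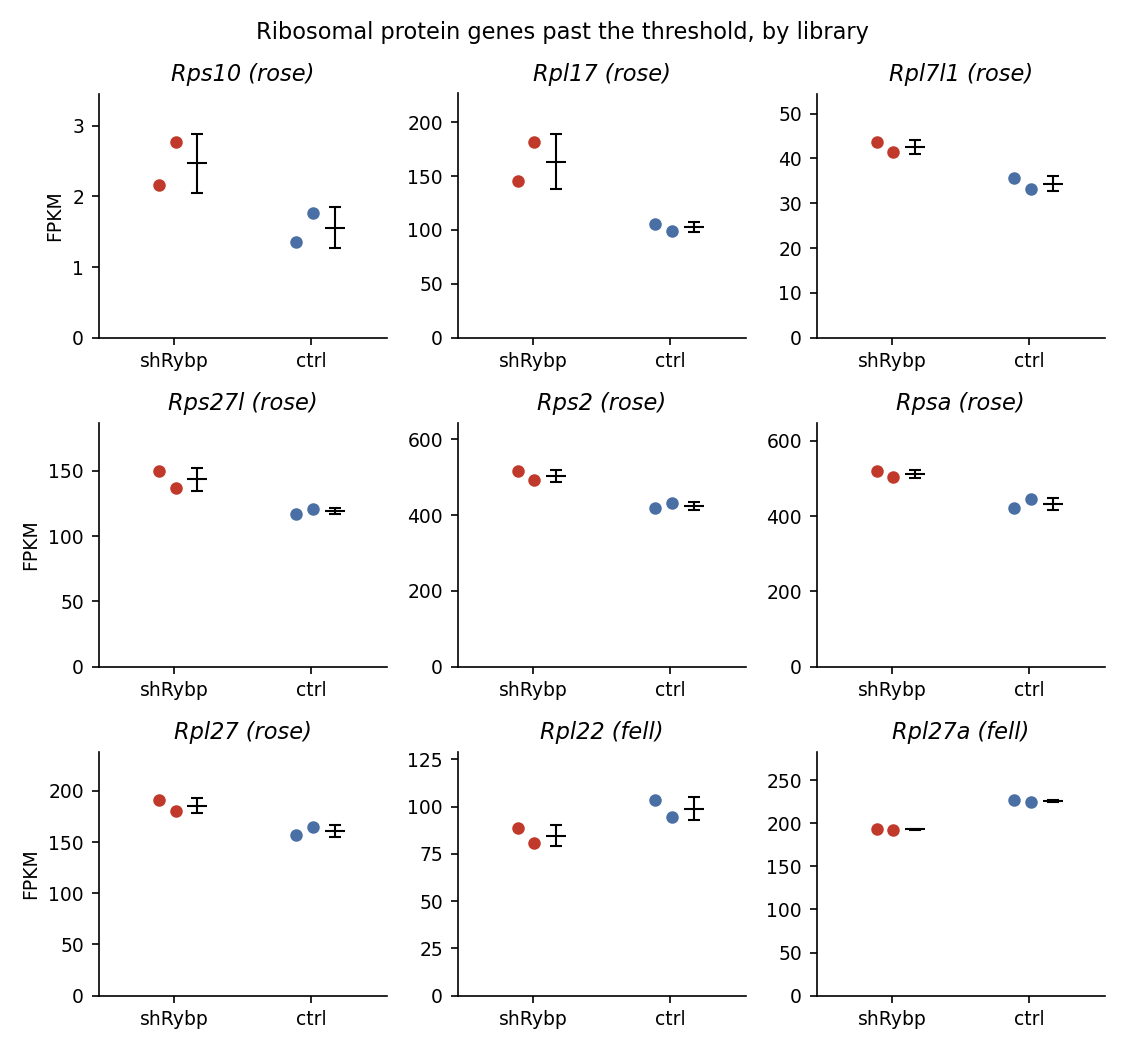
FPKM of the 9 ribosomal protein genes past the threshold in each library (dots; axes start at 0), with the mean and SD of each group beside them (n = 2 each). In each panel the shRybp dots lie wholly above or wholly below the ctrl dots, and the Rps10 panel is the only one whose dots all lie under 3 FPKM.

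The rows of Rpl17 and Rps10 moved most, and both share their sequence with copies that took many counts. A copy here is an annotated gene whose sequence matches the coding sequence at 95% identity or more over at least 50% of it. The annotation holds 583 such copies of the 79 genes, 274 with a row in the table, and 72 of the genes have at least 1. Copies took at least 15% of the summed counts for 15 genes. Reads from a gene and such a copy cannot be told apart wherever their letters are the same. In the annotation 5 of the 79 genes also overlap another gene on the same strand and 23 overlap one on the opposite strand, among them Rps2 (Snhg9) and Rpl7l1 (Gm26904). Whether counting used strand is not known, so reads of such neighbours may be mixed.

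Rpl17, at the wall of the exit tunnel, had 2773 and 3953 counts in shRybp against 2474 and 2099 counts in ctrl. The row rose by 0.64 ± 0.09 on the log2 scale (adjusted p = 0.00018), and its level was 145.3 and 181.3 FPKM in shRybp against 105.8 and 99.1 FPKM in ctrl. Its copy Rpl17-ps10, which is 99.28% identical over the coding sequence, had 1287 and 816 counts in shRybp against 2070 and 1962 counts in ctrl. The copy was thus low where the gene row was high, most of all in shRybp 2. Gene and copies together had 5228 and 5887 counts in shRybp against 6031 and 5296 counts in ctrl. The sum gave a log2 fold change of 0.06 (adjusted p = 0.46), and with only the pseudogenes named after Rpl17 added it was 0.08 (adjusted p = 0.33), so the call of Rpl17 held for its row and not for the sum.

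Rps10, on the head of the small subunit, had 72 and 105 counts in shRybp against 55 and 65 counts in ctrl (log2 fold change 0.64 ± 0.21, adjusted p = 0.034). Its copies held 95.9% of the summed counts. Rps10-ps2 alone, 98.99% identical, had 1572 and 1718 counts in shRybp against 1536 and 1565 counts in ctrl. Gene and copies together gave 0.16 (adjusted p = 0.10). The row also lost its call by DESeq2 (adjusted p = 0.17), without shRybp 2 (0.25) and without ctrl 1 (0.17). In the annotation a read-through gene, RPS10-NUDT3, overlaps Rps10 on the same strand. Rpl24 is the other gene with almost no counts of its own, 16 and 18 in shRybp against 20 and 16 in ctrl, with 91.9% of its sum in copies and an overlapping gene, Gm28037, on the same strand. With so few counts the log2 fold change of Rpl24 could lie anywhere from -0.76 to 0.77.

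Rps27, a zinc-binding protein of the small subunit, had 236.6 and 135.7 FPKM in shRybp against 198.2 and 244.4 FPKM in ctrl. The lowest and the second highest value were both in shRybp, so the groups overlapped and the log2 fold change of -0.29 did not pass (adjusted p = 0.24). It would have passed without shRybp 1, at -0.74 (adjusted p = 1.6e-05), or without ctrl 1, at -0.42 (adjusted p = 0.017), and without shRybp 2 the value was 0.07 (adjusted p = 0.68). The protein-coding gene Rps27rt has a coding sequence identical to that of Rps27, and its counts were 156 and 1625 in shRybp against 772 and 141 in ctrl. From ctrl 2 to shRybp 1, ctrl 1 and shRybp 2, Rps27 FPKM declined while Rps27rt counts climbed. The sums were even, 3705 and 3951 counts in shRybp against 4416 and 4211 counts in ctrl, with a log2 fold change of -0.08 (adjusted p = 0.34).

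Replicates of the same group were close for most ribosomal protein genes. The median gap between replicates was 0.07 on the log2 scale in shRybp and 0.07 in ctrl, and 5 of 79 genes in shRybp and 2 of 79 in ctrl had a gap over 0.3. The widest gaps in shRybp were those of Rps27 at 0.81, Rps27a at 0.68 and Rpl21 at 0.61. Rps27a, made as a fusion with ubiquitin, had 175.6 and 109.8 FPKM in shRybp against 109.2 and 144.4 FPKM in ctrl. In all of Rps27, Rps27a and Rpl21, shRybp 1 and ctrl 2 were the high libraries of their groups. Adding copies evened out Rps27, as described above, but not Rps27a or Rpl21. With copies, Rps27a stood at 367.9 and 237.4 scaled CPM in shRybp against 248.4 and 312.5 in ctrl. Rpl21 stood at 299.7 and 223.2 scaled CPM in shRybp against 286.0 and 309.6 in ctrl. Rps27a did not pass (log2 fold change 0.14, adjusted p = 0.57), but would have without shRybp 2, at 0.44 (adjusted p = 0.0051), or without ctrl 2, at 0.34 (adjusted p = 0.043), and without shRybp 1 the value was -0.25 (adjusted p = 0.11).

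**Figure D4:**
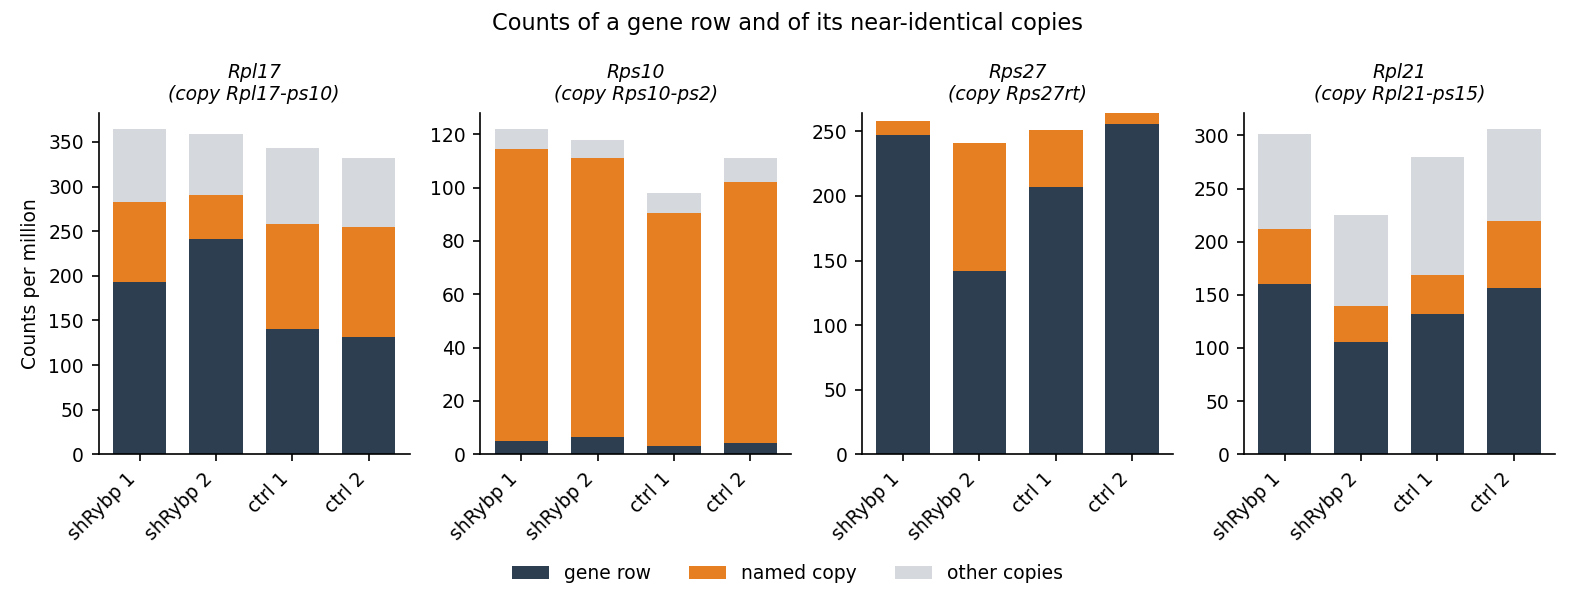
CPM (each count relative to its library total) for 4 genes in each library, stacked as the gene's own row, its named copy and its other near-identical copies. The bars of Rpl17 and Rps27 have like heights while their gene rows differ, the Rps10 bars are nearly all copy, and the Rpl21 bar of shRybp 2 is the shortest of its panel.

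With every such copy added to its gene, 5 of the 79 rose (Rpl27, Rpl7l1, Rps2, Rps27l and Rpsa) and 3 fell (Rpl22, Rpl27a and Rpl39). Of these 8, 7 were also called from the gene row alone. Rpl39 joined them, with a log2 fold change of -0.20 (adjusted p = 0.039), and Rpl17 and Rps10 dropped out. The median over the 79 sums was 0.01 on the log2 scale.

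The paralogues were compared with their parent genes next. Rps27l and Rps27 have coding sequences of the same length, 255 bases, which differ at 61 bases and are identical at 194. They are printed whole, to show how far reads can tell the pair apart; capitals mark the bases that differ, and the chromosomes are 9 for Rps27l and 3 for Rps27.
Rps27l: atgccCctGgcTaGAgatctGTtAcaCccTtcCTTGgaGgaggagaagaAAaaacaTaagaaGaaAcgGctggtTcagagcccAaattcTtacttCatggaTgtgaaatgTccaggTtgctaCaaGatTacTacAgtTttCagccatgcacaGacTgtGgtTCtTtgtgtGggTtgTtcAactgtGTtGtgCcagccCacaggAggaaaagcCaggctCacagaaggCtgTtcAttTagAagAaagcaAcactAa
Rps27: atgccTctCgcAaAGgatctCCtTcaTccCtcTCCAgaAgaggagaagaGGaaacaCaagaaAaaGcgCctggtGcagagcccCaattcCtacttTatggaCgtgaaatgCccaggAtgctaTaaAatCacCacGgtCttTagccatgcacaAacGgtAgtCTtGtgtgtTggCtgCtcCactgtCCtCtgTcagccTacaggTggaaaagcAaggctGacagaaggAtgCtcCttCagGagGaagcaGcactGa
The differences are spread along the whole sequence, at 76.1% identity, whereas Rps27rt matches the Rps27 line at every base. Rpl22l1 and Rpl22 are 66.9% identical over their aligned coding sequences, and Rpl7l1 and Rpl7 are 52.8% identical. The 60 aligned bases without a gap in which each pair is most alike are these, again with differences in capitals.
Rpl22l1, coding bases 213 to 272: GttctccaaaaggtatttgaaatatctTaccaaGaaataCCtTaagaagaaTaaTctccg
Rpl22, coding bases 231 to 290: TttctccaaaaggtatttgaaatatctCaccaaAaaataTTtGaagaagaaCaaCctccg
Rpl7l1, coding bases 430 to 489: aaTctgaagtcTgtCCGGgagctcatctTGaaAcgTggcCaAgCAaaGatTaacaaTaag
Rpl7, coding bases 502 to 561: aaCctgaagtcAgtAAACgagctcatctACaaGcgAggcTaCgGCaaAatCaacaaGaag
Even there the first pair differs at 8 bases and the second at 17.

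Rps27l, in people a target gene of p53, rose. Its level was 149.5 and 137.1 FPKM in shRybp against 117.2 and 120.4 FPKM in ctrl. No copy of it met the rule, the groups did not overlap, and the log2 fold change was 0.23 ± 0.07 (adjusted p = 0.019), with the call lost without shRybp 1 (adjusted p = 0.18) or ctrl 1 (0.067). Relative to the Rps27 row, the log2 count ratio was -1.02 and -0.34 in shRybp against -1.11 and -1.38 in ctrl, a difference of 0.57 with a within-group SD of 0.36, which was 0.90 without shRybp 1 and 0.23 without shRybp 2. The difference of the fitted log2 fold changes of Rps27l and Rps27 was 0.52 with a standard error of 0.19. Relative to Rps27 and Rps27rt together it was -1.08 and -1.10 in shRybp against -1.39 and -1.42 in ctrl, a difference of 0.32 with a within-group SD of 0.02. In both forms each shRybp library lay above each ctrl library, and the exact permutation p was 0.333, the smallest that 2 against 2 allows.

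Rpl7l1, related to a yeast factor of large-subunit assembly, rose as well. Its level was 43.6 and 41.5 FPKM in shRybp against 35.5 and 33.2 FPKM in ctrl, with no copy that had a row and a log2 fold change of 0.27 ± 0.07 (adjusted p = 0.0077). The call was lost without shRybp 1 (adjusted p = 0.055) or ctrl 2 (0.067). Its parent Rpl7 had 333.1 and 314.2 FPKM in shRybp against 290.3 and 292.3 FPKM in ctrl, higher in both shRybp libraries by a log2 fold change of 0.12 that did not pass (adjusted p = 0.18). Rpl7l1 stood at 13.1% and 13.2% of Rpl7 in FPKM in shRybp against 12.3% and 11.4% in ctrl, a log2 count ratio higher by 0.16 with a within-group SD of 0.06 (exact permutation p = 0.333), or by 0.10 without ctrl 2. The difference of the fitted changes was 0.15 with a standard error of 0.09.

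Rpl22l1 had 21.04 and 17.9 FPKM in shRybp against 22.3 and 19.2 FPKM in ctrl. The groups overlapped, and the log2 fold change of -0.13 did not pass (adjusted p = 0.38) while that of its parent Rpl22 did. In mice that lack Rpl22, Rpl22l1 is known to be made in larger amounts. Here Rpl22l1 stood at 23.8% and 22.1% of Rpl22 in FPKM in shRybp against 21.6% and 20.3% in ctrl, and the log2 count ratio was higher by 0.13 with a within-group SD of 0.07 (exact permutation p = 0.333), or by 0.08 without shRybp 1. The difference of the fitted changes was 0.13 with a standard error of 0.13. Rps4l, typed as a pseudogene in the table and so outside the 79 genes, was at under 1% of Rps4x in every library. Rpl39l, Rpl36al, Rpl3l and Rpl10l were not analysed here.

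**Figure D5:**
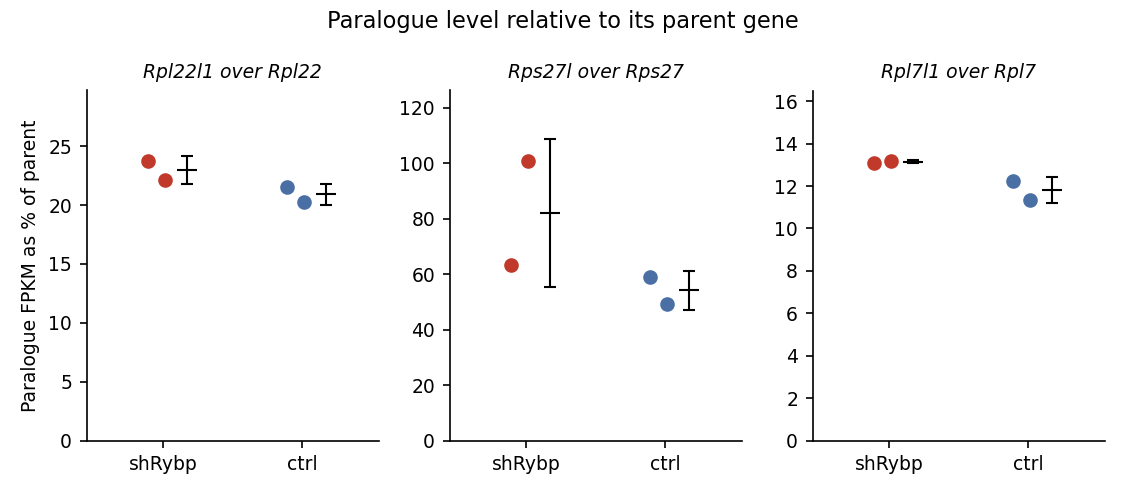
FPKM of Rpl22l1, Rps27l and Rpl7l1 as a percentage of the parent gene's FPKM in each library (dots; axes start at 0), with the mean and SD of each group (n = 2 each). In all 3 panels the shRybp dots lie above the ctrl dots, and the Rps27l value of shRybp 2 stands at 101.0%, in the library with the fewest Rps27 counts.

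Of the ribosomal protein genes that the name rule leaves out, Rps3a1, Fau and Rack1 are reported here, and none of these 3 passed by edgeR or DESeq2 (1, Rack1, had an unadjusted p under 0.05 by either). Rps3a1 had 1044 and 938.4 FPKM in shRybp against 1001 and 937.3 FPKM in ctrl. Rack1, a scaffold on the head of the small subunit, had 134.8 and 140.1 FPKM in shRybp against 121.9 and 122.0 FPKM in ctrl, with a log2 fold change of 0.14 (adjusted p = 0.11). Of 20 other messenger RNAs with a 5′ terminal oligopyrimidine tract, 3 rose and 1 fell, beside 33.0% of all rows called. Their median log2 fold change was -0.04. Vim, the intermediate filament of progenitors, rose by 0.27 (adjusted p = 0.012), Npm1, a nucleolar chaperone, by 0.22 (adjusted p = 0.029) and the importin Ipo5 by 0.18 (adjusted p = 0.039). Eef1b2, an exchange factor of elongation, fell to 129.0 and 119.9 FPKM in shRybp, against 151.6 and 139.6 FPKM in ctrl (log2 fold change -0.26, adjusted p = 0.010).

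Of 19 regulators of ribosomal protein synthesis, 4 rose and none fell by edgeR (1 was lower at an unadjusted p under 0.05). DESeq2 called 3 higher and 0 lower. Over all rows tested, edgeR called 16.3% as higher and 16.7% as lower. Larp1, which binds and restrains messenger RNAs with a pyrimidine tract, had 32.7 and 33.7 FPKM in shRybp against 23.0 and 24.3 FPKM in ctrl (log2 fold change 0.45 ± 0.06, adjusted p = 0.00012). The translation repressors Eif4ebp1 and Eif4ebp2, which mTOR switches off, rose by 0.61 (adjusted p = 0.0025) and 0.31 (adjusted p = 0.0019), and Myc, a driver of ribosome production, by 0.18 (adjusted p = 0.043). Mtor itself gave -0.16 (adjusted p = 0.073), and Gabpa and Yy1 gave 0.05 and 0.08 (adjusted p = 0.65 and 0.37).

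The list of 15 chaperones and escorts of ribosomal proteins also holds ribosome assembly factors. Of the 15 genes, 6 rose and 1 fell by edgeR, and DESeq2 called 4 higher and 0 lower. Over all rows tested, edgeR called 16.3% as higher and 16.7% as lower. Grwd1, a chaperone of Rpl3, had 22.7 and 22.8 FPKM in shRybp against 13.2 and 14.3 FPKM in ctrl (log2 fold change 0.69 ± 0.09, adjusted p = 7.9e-05), while its client Rpl3 gave the -0.03 reported above. Ltv1, an assembly factor of the small subunit, rose by 0.38 (adjusted p = 0.0048), Pdcd2l, an escort of the small subunit, by 0.32 (adjusted p = 0.041) and Heatr3, which carries Rpl5, by 0.23 (adjusted p = 0.032). The importins Kpnb1 and Ipo5 were the other genes that rose. Znhit6, a factor of small nucleolar RNA particles, fell by 0.41 (adjusted p = 0.0084).

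Of 15 enzymes listed as modifiers of ribosomal proteins, 4 rose and 1 fell, a share close to the 33.0% of all rows that were called. Zfp598, which marks Rps10 on collided ribosomes with ubiquitin, rose by 0.37 (adjusted p = 0.017), and Usp10, which removes such marks, by 0.29 (adjusted p = 0.0042). Nmt1 rose by 0.27 (adjusted p = 0.0041) and Nmt2 fell by 0.29 (adjusted p = 0.0087); both attach myristate to proteins. Rad18, best known as a ligase of the replication clamp, rose by 0.32 (adjusted p = 0.020). Riox2 gave 0.15 (adjusted p = 0.24).

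Of 11 genes of the p53 pathway, 4 rose and none fell by edgeR (0 were lower at an unadjusted p under 0.05), and DESeq2 called 3 higher and 0 lower. Trp53 had 25.3 and 26.5 FPKM in shRybp against 17.3 and 18.4 FPKM in ctrl, with no overlap and a log2 fold change of 0.51 ± 0.07 (adjusted p = 0.00016). Sesn2 rose by 0.47 (adjusted p = 0.0029), Bax, a cell death effector, by 0.45 (adjusted p = 0.0010) and Mdm4, an inhibitor of p53, by 0.20 (adjusted p = 0.041). Mdm2 and Cdkn1a did not pass, at 0.11 (adjusted p = 0.30) and 0.12 (adjusted p = 0.23). The counts of these lists stand beside the 33.0% of all rows that edgeR called, 16.3% as higher and 16.7% as lower. DESeq2 called 23.3% of all rows. No test of a list as a whole was made.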

How the data were processed

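The deposited table gives, per gene and library, raw read counts that the authors did not normalize and FPKM values that the authors computed from them (whole numbers and scaled values, per the file headers). Coordinates follow mm10, which the submitters' processing notes name. How reads were aligned and counted, with or without strand, and what was done with reads of several matches is not given here by any source. Each row totals at least 40 counts. Rows with a mean FPKM of at least 1 (12062) were tested on counts with edgeR 4.0.16 (R 4.3.3; quasi-likelihood, TMM, 4 libraries, 2 groups, two-sided), with Benjamini-Hochberg adjustment over all of them. The method was tested on simulated data. Standard errors are the size of the log2 fold change over the square root of F. Copies were found with BLAST+ 2.17.0 against GENCODE transcripts of the same build, and paralogues aligned with Biopython 1.88. Alternatives were other scalings and filters, DESeq2 1.42.0, limma 3.58.1 on log2 FPKM, left-out libraries, a replicate block and added copies. Genes and lists were chosen with earlier results of these data known. Named genes are those with the largest called changes, the 3 most abundant of each subunit, the paralogue pairs and genes with textbook roles. Depth per library is given with the results; the Rps10 and Rpl24 rows had 105 counts or fewer in each library.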

Additional observations from a re-analysis of the deposited data

How the results depend on the processing

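Against 7 ribosomal protein genes that rose and 2 that fell, unscaled library totals gave 12 and 2, a mean of at least 5 FPKM gave 5 and 4 (77 genes tested), limma on log2(FPKM + 1) and on log2(FPKM + 0.1) gave 8 and 1 each, and DESeq2 gave 5 and 2. Leaving out each library gave 2 to 5 higher and 1 to 6 lower ribosomal protein genes, and 1296 to 1640 higher rows in the whole table, against 1970 with all 4 libraries; fewer samples entered those fits. A replicate block gave 13 and 5, with 22.8% of the ribosomal protein genes and 44.2% of all rows called. No label says that same-numbered libraries were paired. The correlation of their deviations was 0.10 over 2 pairs, which does not settle whether they were. The share of ribosomal protein genes called stayed below that of all rows under each of the 15 alternatives. Adding copies, sought by sequence, was chosen after the data were seen. Unscaled totals moved the median of all rows to 0.04 and that of the ribosomal protein genes to 0.05. Of 494 values of named genes under alternatives, 456 kept their call or lack of one, 27 lost and 11 gained a call; 30 of the 456, all of genes not called, had the other sign. The few counts of the Rps10 and Rpl24 rows limit their precision.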
